A study of Mus musculus with 11 samples.

Results

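Chromatin that was open in Treg cells and in naive CD4 T cells, and less open in anergic and effector CD4 T cells, is described here. Its members were chosen from the measured signal: a peak was taken when the mean log2(value + 1) of Treg cells and that of naive cells each exceeded the means of both anergic and Teff cells by 0.6 or more, while Treg and naive cells differed by less than 0.6. Of 38509 peaks, 921 met this rule, which is 2.39%. The differences of Treg and naive cells from anergic and Teff cells, and the likeness of Treg and naive cells, therefore chose the members and are given as a description, with no test.

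The assay was ATAC-seq, in which the Tn5 transposase cuts and tags DNA that is not covered by nucleosomes, so that reads pile up over open regulatory sequence. The cells came from wildtype C57BL/6 Foxp3-GFP mice with a polyclonal repertoire, from spleen and lymph node mixed, with no treatment, and 11 libraries were made from freshly sorted CD4 T cells. Treg cells (n = 3) were sorted as FOXP3+ CD25+, anergic cells (n = 3) as CD44high FOXP3– CD73high FR4high NRP1+, Teff cells (n = 3) as CD44high FOXP3– CD73low FR4low, and naive cells (n = 2) as CD44low. The Foxp3-GFP reporter background was shared by all 4 groups. These are separately sorted populations and no cell was followed from one state to another. RNA-seq of the same populations is described by the series and was not analysed here.

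Naive CD4 T cells are held in a quiescent, recirculating state by transcription factors such as FOXO1, KLF2, TCF7, LEF1, BACH2 and FOXP1, and they enter lymph nodes with the help of CCR7. Antigen encounter normally closes part of this programme as cells become effectors. Anergic cells are antigen-experienced cells that respond poorly to restimulation, and Treg cells, defined by FOXP3, restrain other T cells.

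The peak inside Foxp3, 3.57 kb from its start site, had a signal of 1331 ± 244 in Treg, 131 ± 46.4 in anergic, 31.1 ± 27.9 in Teff and 11.6 ± 5.44 in naive libraries (SD). The Cd44 peak had 541 ± 82.0 in Treg, 1314 ± 76.5 in anergic, 1093 ± 303 in Teff and 460 ± 39.8 in naive libraries, and the start-site peak of Nt5e, which encodes CD73, had 1154 ± 124, 1409 ± 132, 931 ± 61.4 and 438 ± 12.7 in the same 4 groups. The order of these levels followed the gates. At the strongest peaks of Izumo1r, which encodes FR4, and Nrp1, anergic libraries (2270 and 669) also exceeded Teff libraries (1072 and 355). The strongest peak of Il2ra, the gene of CD25, did not follow the gate. It averaged 1358 in Treg, 1198 in anergic, 1372 in Teff and 1320 in naive libraries. Signal here and below is the deposited value, which is reads in the peak times a factor of the library. Reads in peaks, recovered from it, numbered 14.7 to 29.7 M in Treg, 21.5 to 68.8 M in anergic, 20.9 to 50.9 M in Teff and 45.7 to 48.1 M in naive libraries.

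The members spread over 651 nearest genes, and 4 of the members are printed to show the sequence of the strongest member at each of 3 genes of the naive state (Bach2, Foxp1 and Klf2) and of the Il2ra member. They are the plus strand of the RefSeq genome, build GRCm38 (mm10), 5′ to 3′, whole where the peak is at most 300 bases and otherwise its central 300 bases. Capitals mark letters that match any of 16 short motifs searched on both strands.
Bach2 upstream, chr4:32394921-32395131: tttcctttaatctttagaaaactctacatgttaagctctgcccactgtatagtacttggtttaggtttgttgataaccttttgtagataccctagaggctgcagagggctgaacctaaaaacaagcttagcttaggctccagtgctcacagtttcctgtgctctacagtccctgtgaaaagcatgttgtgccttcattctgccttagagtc
Foxp1 intron, chr6:99322605-99322862: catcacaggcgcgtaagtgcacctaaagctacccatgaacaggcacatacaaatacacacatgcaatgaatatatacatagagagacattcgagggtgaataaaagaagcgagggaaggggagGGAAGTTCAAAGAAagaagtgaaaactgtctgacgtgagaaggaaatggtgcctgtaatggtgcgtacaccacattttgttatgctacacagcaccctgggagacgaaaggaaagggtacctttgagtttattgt
Klf2 upstream, chr8:72295726-72296025: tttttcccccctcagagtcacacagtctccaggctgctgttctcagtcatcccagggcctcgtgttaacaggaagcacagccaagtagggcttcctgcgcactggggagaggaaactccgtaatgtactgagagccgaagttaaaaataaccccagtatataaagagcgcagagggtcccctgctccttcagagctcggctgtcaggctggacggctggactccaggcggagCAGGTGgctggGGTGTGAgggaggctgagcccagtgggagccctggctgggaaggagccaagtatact
Il2ra upstream, chr2:11637160-11637424: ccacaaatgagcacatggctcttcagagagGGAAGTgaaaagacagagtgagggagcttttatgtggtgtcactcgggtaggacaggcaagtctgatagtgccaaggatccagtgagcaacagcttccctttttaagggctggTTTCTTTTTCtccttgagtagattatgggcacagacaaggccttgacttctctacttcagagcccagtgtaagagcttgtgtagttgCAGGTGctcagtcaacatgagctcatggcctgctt
Positions are counted from 1 at the left end. In Foxp1 an ETS match (GGAAGT) at base 124 shares its last base with a STAT match (TTCNNNGAA) at base 129. Klf2 holds an E-box with a GG centre (CAGGTG) at base 233 and a T-box match (GGTGTGA) at base 244, and Il2ra an ETS match at base 31, an IRF match (on the minus strand) at base 144 and an E-box with a GG centre at base 231. The Bach2 sequence holds none of the 16, which says only that those letters are absent from this window.

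**Figure D1:**
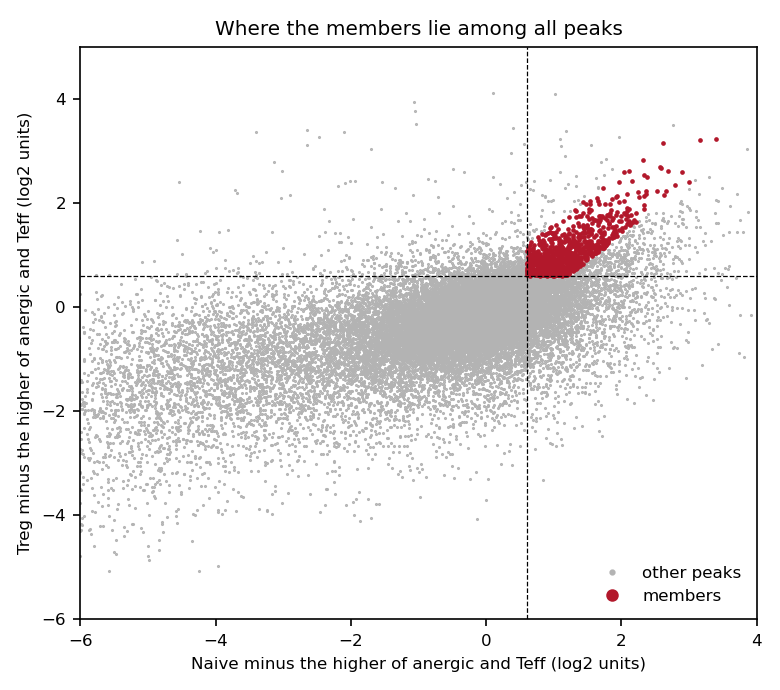
Each point is a peak, with the naive mean minus the higher of the anergic and Teff means on the x axis and the Treg mean minus the same value on the y axis, both in log2(value + 1) units. Red points are the 921 members, dashed lines stand at 0.6, and 284 peaks lie outside the drawn range.

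Naive cells exceeded both anergic and Teff cells by 0.6 or more at 4956 peaks, and Treg cells did so as well at 1449 of these. The members are 18.6% of those 4956 peaks and 38.9% of the 2368 peaks where Treg cells exceeded both. The remaining 528 of the 1449 shared peaks differed by 0.6 or more between Treg and naive cells, with Treg higher at 53 and naive higher at 475. At 3247 of the 4956 naive-high peaks Treg signal lay 0.6 or more below naive signal. The plot of the 2 differences shows the members as a corner of a continuous cloud.

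The gap, used below, is the lower of the Treg and naive means minus the higher of the anergic and Teff means, on the log2(value + 1) scale. Its median over the members was 0.86, its quartiles were 0.71 and 1.15, and its largest value was 3.24. It reached 1 at 337 members and 2 at 25. Just inside the threshold stood peaks nearest Pim1, Gm31728 and Kcnj10, with gaps of 0.6004, 0.6016 and 0.6026, and just outside stood peaks nearest Spsb1, Brox and Rasl11b, with gaps of 0.5998, 0.5991 and 0.5982. The members nearest the line thus do not stand apart from the peaks left out.

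The median member had a group mean signal of 160.5 in Treg, 65.0 in anergic, 74.8 in Teff and 169 in naive cells. Over all peaks the medians were 216 in Treg, 218 in anergic, 217 in Teff and 211 in naive cells. Library by library, the member median was 160, 162 and 163 in Treg, 74.6, 63.3 and 57.8 in anergic, 67.8, 71.9 and 80.0 in Teff, and 172 and 168 in naive libraries. The member medians of the 11 libraries formed 2 levels with no overlap, and the medians of all peaks were alike in every library. The rule chose the members by this contrast in the same libraries, so the 2 levels follow from the choice. In bulk samples, fewer cells with an open site and less accessibility of the site in each cell cannot be told apart.

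**Figure D2:**
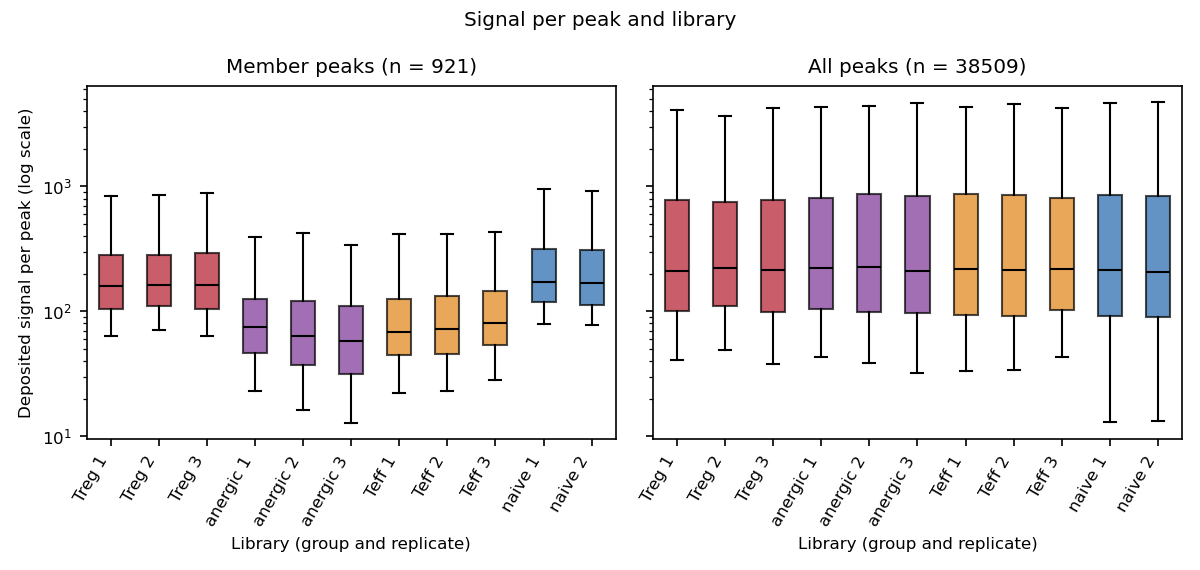
Boxes give the median and quartiles of the deposited signal (log axis) in each library and whiskers the 5th and 95th percentiles, for the 921 members on the left and all 38509 peaks on the right. Member medians are 160 to 163 in Treg, 57.8 to 74.6 in anergic, 67.8 to 80.0 in Teff and 168 to 172 in naive libraries, while all peaks lie level.

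Within the margin that the rule allowed, Treg signal was the higher at 295 members and naive signal at 626, with a median Treg minus naive difference of -0.14. At 784 members (85.1%) every Treg and naive library lay above every anergic and Teff library, as was the case at 5.33% of all peaks. The rule used this contrast, so nothing is read from that difference. The members were covered by a median of 45 reads in the library with the fewest (anergic replicate 1) to 217 in the one with the most (naive replicate 2), and 42 members had under 10 reads in some library.

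Each library was next left out of the choice in turn. When members were chosen again without 1 library, 862 to 998 peaks were taken. The library left out lay on the side of its group, above or below the other pair of groups as the rule requires, at 93.5% (Teff replicate 3) to 99.7% (anergic replicate 3) of them. Over all peaks the same held at 27.5% to 43.7%, depending on the library left out. A difference of at least 0.6 recurred in the library left out at 64.6% to 90.4% of the peaks taken, against 5.59% to 14.2% of all peaks. The left-out library shared its group label and sort with the libraries that chose the peaks. It was set against means of the other pair of groups, and those means had chosen the peaks. That side of each comparison was therefore fixed by the rule, and the shares are a description and no independent check.

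The strongest member lay in an intron of Eif4e3, a member of the family that binds the mRNA cap, 20.2 kb from the start site. Its signal was 348, 330 and 406 in Treg, 53.1, 22.1 and 22.8 in anergic, 48.5, 30.6 and 35.0 in Teff, and 433 and 376 in naive libraries. The Treg and naive libraries lay far above the other 6 with no overlap, at a gap of 3.24, or 9.43-fold. Anergic and Teff libraries overlapped.

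The 12 members of largest gap, 1 per gene with mean log2 of 6 or more, lay over 1000 bases from a start site. The nearest, at Gpr146, was 1.07 kb away. Among the 12, Bcl2l11 encodes BIM, a pro-apoptotic BCL2-family protein that sets T cell survival. Its peak in the 3′ UTR, 32.4 kb from the start, had 234, 213 and 208 in Treg, 29.8, 4.74 and 16.1 in anergic, 28.4, 46.2 and 33.3 in Teff, and 286 and 251 in naive libraries. The gap was 2.59, with Treg and naive libraries several times above all others. Pmepa1, which encodes an inhibitor of TGF-beta signalling, had a member 72.5 kb upstream with means of 156 ± 17.2 in Treg, 32.7 ± 16.2 in anergic, 37.8 ± 7.25 in Teff and 151 ± 35.2 in naive cells (SD).

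The others of the 12, after Eif4e3, Bcl2l11 and Pmepa1, lay nearest Trim25, Tom1l2, Treml2, Bach2, Platr22, Gpr146, Ripor2, Ets2 and Dad1, with gaps of 1.89 to 2.35. Trim25 encodes a ubiquitin ligase of antiviral sensing, Tom1l2 an endosomal sorting adaptor, Gpr146 an orphan receptor and Ets2 an ETS-family transcription factor. At the Gpr146 intron member the signal was 515, 453 and 579 in Treg, 86.2, 58.0 and 50.4 in anergic, 59.5, 93.3 and 108 in Teff, and 398 and 309 in naive libraries. Treg libraries were the highest there, anergic and Teff libraries overlapped, and no anergic or Teff library reached the lowest naive one. The Dad1 member is 605 kb from the Dad1 start site, inside the array of T cell receptor alpha variable segments, which shows how loose a nearest-gene label can be.

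Genes of the naive state held many members. Of 513 peaks at the 27 genes of a naive and quiescence list, 80 were members (15.6%, against 2.39% of all peaks), at 17 genes. Bach2, a repressor that restrains effector differentiation and supports Treg formation, led with 24 of its 51 peaks, and Foxp1, a forkhead repressor that maintains naive quiescence, followed with 19 of 56. Further members of the list included those at Klf2 (5), Btg1 (4), Lef1, Igfbp4, Ccr7 and Il6st (3 each), Ets1 and Foxo1 (2 each), with 1 each at Bcl11b, Actn1, Satb1, Il7r, Dapl1 and Ccr9. The list was written with earlier results of these data known, so its share is a description.

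At the Bach2 member 22.4 kb upstream, which is printed above, the signal was 130, 126 and 173 in Treg, 14.9, 23.7 and 13.4 in anergic, 24.2, 38.8 and 15.0 in Teff, and 135 and 125 in naive libraries. Treg and naive libraries were alike and above the other 6, at a gap of 2.37, or 5.18-fold. The member 42.0 kb upstream was similar, with 215, 170 and 210 in Treg, 41.4, 38.0 and 30.2 in anergic, 32.5, 43.8 and 23.3 in Teff, and 204 and 134 in naive libraries.

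The Bach2 members formed the largest run of members in the genome. Linking members no more than 50 kb apart gave 1 run of 24 over chr4:32240528-32423986, reaching from upstream into the gene, among 40 peaks. Bach2 was not uniform: its 27 other peaks had a median gap of -0.34 and a lowest gap of -4.03, and at 8 of them naive signal exceeded Treg signal by 0.6 or more. The map of the loci shows peaks with strongly negative gaps near the start site, on both sides of it.

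**Figure D3:**
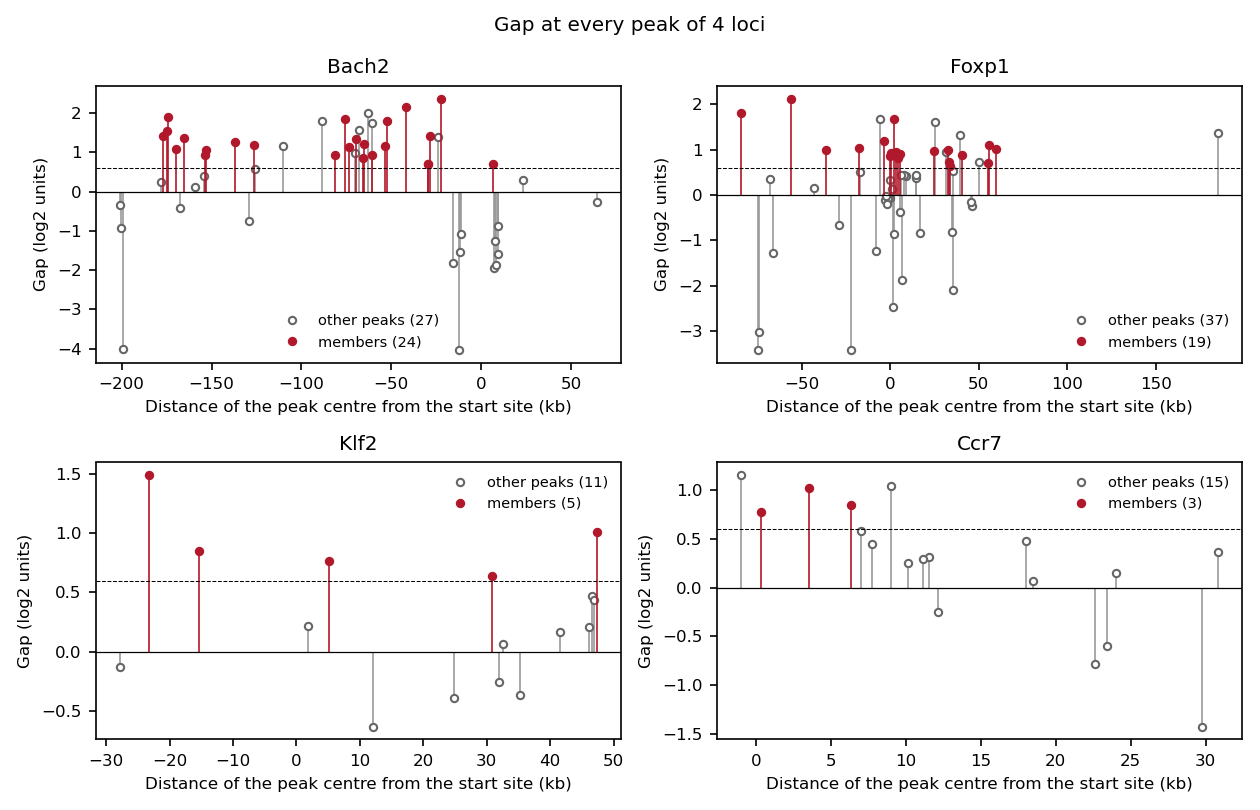
Each stem is a peak nearest Bach2, Foxp1, Klf2 or Ccr7, at its distance in kb from the start site (x axis) and with its gap in log2 units (y axis); red filled points are members, open grey points the other peaks, and the dashed line is 0.6. Bach2 has 24 members among 51 peaks, Foxp1 19 among 56, Klf2 5 among 16 and Ccr7 3 among 18.

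At Foxp1, the intron member 56.2 kb from the start had a signal of 168, 149 and 83.6 in Treg, 26.5, 32.7 and 26.9 in anergic, 20.8, 23.1 and 26.7 in Teff, and 183 and 108 in naive libraries. Treg and naive libraries varied among themselves and still lay clear of the other 6. A run of 18 members covered chr6:99241683-99452945 among 37 peaks. The 37 Foxp1 peaks that were not members had a median gap of -0.07, a lowest of -3.41, and naive above Treg by 0.6 or more at 12.

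Klf2 encodes a factor that drives expression of the egress receptor S1PR1. Its member 23.2 kb upstream had 900, 937 and 1288 in Treg, 133, 163 and 149 in anergic, 244, 366 and 462 in Teff, and 856 and 1110 in naive libraries. The 4 groups fell into 3 levels there, with Treg and naive highest, Teff between and anergic lowest. Ccr7, the chemokine receptor for the T cell zone, had a broad intron member 3.53 kb from the start with 3452, 2686 and 3162 in Treg, 1514, 1557 and 1499 in anergic, 1045, 1330 and 1618 in Teff, and 3249 and 3064 in naive libraries. Its gap was 1.02, with abundant signal left in anergic and Teff cells.

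The recirculation gene Cxcr4, which encodes a chemokine receptor, had 2 members. None of the peaks at S1pr1, S1pr4, Itgb7, Itgal, Itga4, Selplg or Gpr183 was a member.

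**Figure D4:**
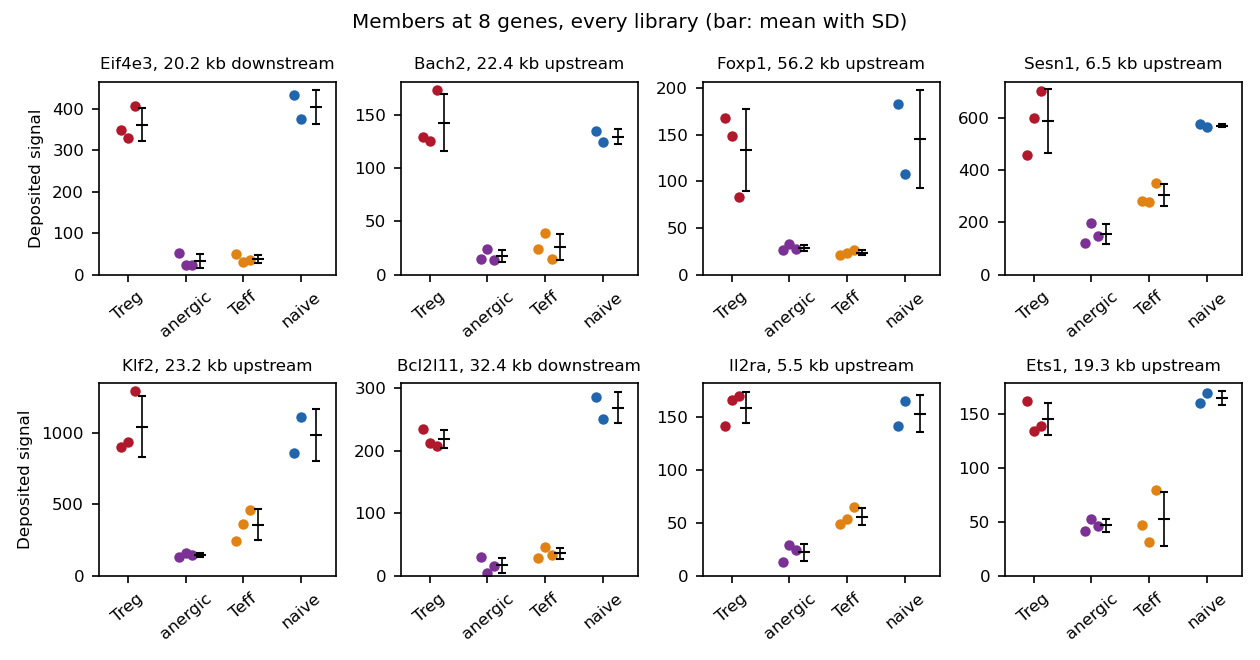
The y axis is the deposited signal of 1 member peak near each of 8 genes, with a point for every library (Treg 3, anergic 3, Teff 3, naive 2) and a bar for the group mean with its SD. Every Treg and naive point lies above every anergic and Teff point, and at Klf2, Sesn1 and Il2ra the anergic libraries also lie below the Teff libraries.

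Members also lay at cytokine receptor genes. Among 118 peaks of the IL-2 and IL-7 receptor and STAT5 list 8 were members (6.78%, against 2.39% of all peaks), at Stat5b (3), Il4ra (2), Il7r, Il2ra and Jak1. Il2ra encodes CD25, the alpha chain of the IL-2 receptor, on which Treg cells were sorted. Its member 5.50 kb upstream had 142, 166 and 170 in Treg, 13.3, 29.0 and 24.9 in anergic, 49.2, 53.7 and 65.0 in Teff, and 141 and 166 in naive libraries. Treg and naive libraries were thus level at this Il2ra site, although naive cells were not sorted on CD25, and the anergic libraries were the lowest. The Il2ra peak 10.8 kb downstream, in contrast, averaged 1358 ± 232 in Treg, 1198 ± 57.0 in anergic, 1372 ± 251 in Teff and 1320 ± 183 in naive cells (SD).

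Il4ra, the IL-4 receptor alpha chain, had an intron member 9.11 kb from the start with means of 910 ± 61.6 in Treg, 257 ± 39.8 in anergic, 360 ± 14.4 in Teff and 1275 ± 69.2 in naive cells (SD). The IL-6 receptor, STAT3 and interferon receptor list held 4 members of 77 peaks (5.19%), 3 at Il6st, which encodes the shared receptor chain gp130, and 1 at Ifngr1. The T cell receptor and proximal signalling list held 6 of 304, a share of 1.97%, below the 2.39% of all peaks. Those 6 lay at Cd247, Cd2, Prkcq and Rasgrp1.

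The Treg identity list held 6 members of 148 peaks (4.05%, against 2.39% of all peaks), 1 each at Il2ra, Ctla4, Cd83, Tnfrsf4, Gpr83 and Izumo1r, and none at Foxp3, Ikzf2 or Nrp1. Izumo1r encodes FR4, one of the sort markers, and its member 63.2 kb upstream had 68.7, 59.6 and 67.1 in Treg, 13.3, 9.49 and 16.1 in anergic, 28.4, 8.26 and 11.7 in Teff, and 77.2 and 72.8 in naive libraries. The Izumo1r peak near the start site had another order of levels, with averages of 1676 ± 274 in Treg, 2270 ± 459 in anergic, 1072 ± 232 in Teff and 650 ± 149 in naive cells.

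Genes that restrain growth signalling also held members. The FOXO and PI3K pathway list had 26 members of 176 peaks (14.8%, against 2.39% of all peaks), of which 19 were the Foxp1 peaks and others lay at Foxo1 (2), Sesn1, Pik3ip1, Foxo3 and Inpp4b. Sesn1 encodes a sestrin that restrains mTORC1, and its intron member had 458, 598 and 703 in Treg, 121, 197 and 148 in anergic, 280, 278 and 352 in Teff, and 574 and 566 in naive libraries. Anergic libraries were lowest and Teff libraries intermediate, without overlap between these groups.

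The TGF-beta receptor and SMAD list held 5 members of 114 peaks (4.39%, against 2.39% of all peaks), 4 at Smad7, which encodes an inhibitory SMAD, and 1 at Ski, a SMAD co-repressor. The BCL2 family list held 5 of 62 (8.06%), 3 at Bcl2l11 and 2 at Bmf, both of which encode pro-apoptotic BH3-only proteins. The list of ETS, RUNX and E protein factors held 5 of 243 (2.06%), 3 at Ets2 and 2 at Ets1. The Ets1 member of largest gap lay in an intron of Ets1, 19.3 kb before the nearest annotated start site. It had 162, 134 and 139 in Treg, 41.4, 52.7 and 46.3 in anergic, 47.1, 31.4 and 80.0 in Teff, and 160 and 170 in naive libraries. Anergic and Teff libraries overlapped at Ets1, below both other groups.

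The effector lineage list held 3 members among 121 peaks, 2 at Gata3 and 1 at Eomes, a share of 2.48% that is near the 2.39% of all peaks. The inhibitory receptor list held 1 among 115 (0.870%), near Ctla4. Of 57 housekeeping peaks 1 was a member (1.75%), near Ywhaz.

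Markers of other cell types gave 1 member of 9 peaks for B cells, near Cd74, 0 of 18 for myeloid cells and 1 of 32 for CD8, NK and innate-like T cells, at Eomes. The summed signal of the B cell list was 2039 to 2307 in Treg, 1387 to 1666 in anergic, 922 to 1076 in Teff and 1181 to 1209 in naive libraries. The summed signal of the myeloid list was 3939 to 4196 in Treg, 5850 to 6279 in anergic, 4588 to 5057 in Teff and 2910 to 3049 in naive libraries. For the CD8, NK and innate-like list the sum was 19760 to 25151 in Treg, 21267 to 26710 in anergic, 26357 to 31046 in Teff and 24050 to 24569 in naive libraries. The part of other cell types in the member signal was not tested.

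Members lay away from promoters. Within 1000 bases of a start site stood 117 members, 12.7% (exact 95% interval 10.6% to 15.0%), against 33.2% of all peaks on chromosomes. The median distance to the nearest start site was 16.3 kb for members and 5.61 kb for all peaks, and 8.69% of members against 4.21% of all peaks lay beyond 100 kb. By annotation, 47.7% of members were intergenic and 45.4% intronic, against 38.6% and 43.4% of all peaks, while 5′ UTRs held 2.06% of members and 10.1% of all peaks. Members were also narrower, with a median width of 228 bases against 369.

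The few promoter members were led by Iftap, a peak in the 5′ UTR with 227, 206 and 262 in Treg, 46.4, 8.96 and 3.36 in anergic, 32.5, 54.5 and 23.3 in Teff, and 219 and 201 in naive libraries. Its gap was 2.56, and the Treg and naive libraries lay above all others. Sorcs2, a sorting receptor best known from neurons, had a run of 5 members over chr5:36374220-36399257 with no other peak between them. That span was drawn from the first member to the last, and peaks outside it were not counted. The Sorcs2 peak at the start site had 476, 483 and 486 in Treg, 126, 97.0 and 101 in anergic, 129, 128 and 215 in Teff, and 561 and 667 in naive libraries. Iftap and Sorcs2 were singled out after their values were seen.

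Of the 921 members, 510 stood alone when members within 50 kb of each other were linked into runs, 85 runs held 2, and 53 runs of 3 or more held 241 members (26.2%). After Bach2 and Foxp1, large runs were 9 members at Myrfl and Rab3ip, 7 at Ccr7 and Tns4, and 6 each at Dusp10, St8sia1 and Klf2 with Ap1m1. At the Myrfl member in an intron of Rab3ip the means were 65.4 ± 7.96 in Treg, 20.5 ± 2.03 in anergic, 21.6 ± 10.4 in Teff and 62.5 ± 5.72 in naive cells (SD). The most prominent Dusp10 member was less clear, since Teff replicate 3 at 73.3 stood above Treg replicates 2 and 3 at 68.1 and 68.4. Non-members within 10 kb of a member (1226) had a median gap of -0.04 and were above 0 in 46.0%, against -0.37 and 17.3% for all non-members.

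The T cell receptor alpha locus gave another concentration. Across its variable segments, chr14:52427928-54149294 in GENCODE M21, 14 of 50 peaks were members (28.0%), and over the joining segments and constant gene 1 of 32 was. The highest of them by gap, near the predicted gene Gm30214, had 40.5, 53.2 and 63.3 in Treg, 4.97, 9.49 and 6.05 in anergic, 12.5, 16.5 and 5.00 in Teff, and 60.9 and 52.6 in naive libraries. It rests on few reads, as few as 3 in the thinnest library. Of the 36 other peaks over the variable segments 30 had a gap above 0. Treg signal was mostly below naive signal across these segments. The median Treg minus naive difference was -0.77 log2 units over all 50 peaks and -0.29 over the 14 members. T cells rearrange this locus, joining a variable segment to a joining segment to build the receptor's alpha chain.

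The comparison of anergic with Teff cells was not used by the rule, which treats them alike, and it was tested at the members. Anergic cells had lower signal than Teff cells at 172 of 921 members (18.7%) and higher signal at 24 (2.61%), by limma with Benjamini-Hochberg adjustment over 38493 peaks at a threshold of 0.05. Over all tested peaks 16.8% were lower and 15.9% higher in anergic cells, 32.8% in either direction. The share called lower is thus near the background, and the share called higher is below it, in peaks whose signal in these 2 groups is lower than that of all peaks. The median log2 fold change of anergic over Teff was -0.20 over the members and -0.00069 over all tested peaks, and 607 of 921 members lay below 0. The median of the SD of log2 values within a group was 0.35 for anergic and 0.29 for Teff libraries at the members. Without anergic replicate 3 the number lower was 111, and in a fit of the anergic and Teff libraries alone it was 114, with 15 higher. The shares of all peaks called in these 2 fits are not given here. The smaller counts are therefore not read as a result about the members.

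**Figure D5:**
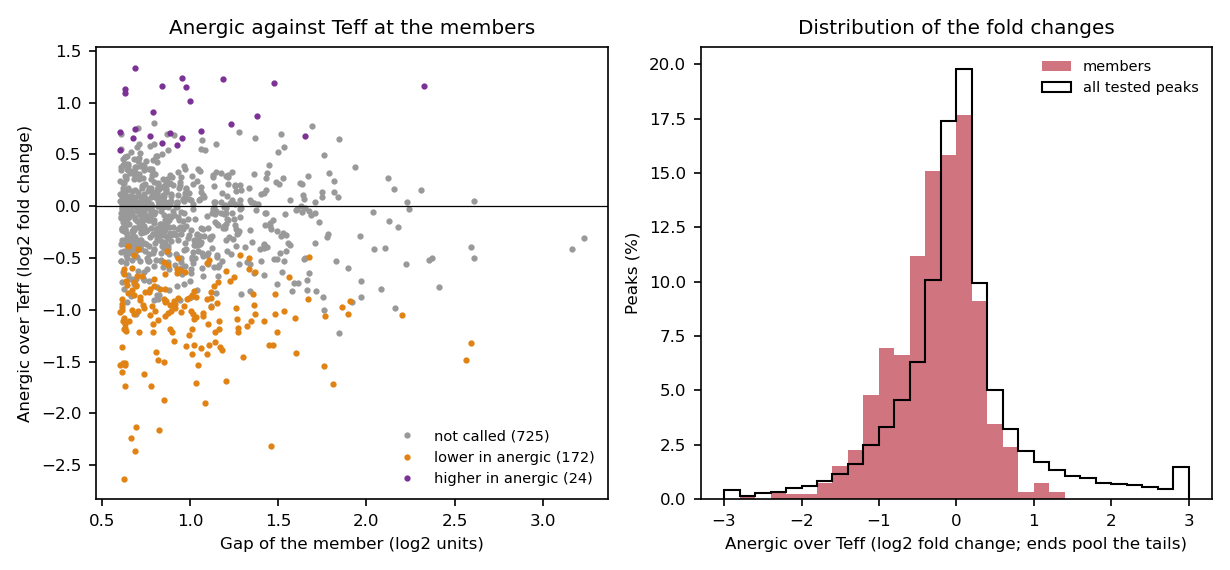
Left, the log2 fold change of anergic over Teff (y axis) for each member against its gap (x axis), with members called lower in anergic (172), higher in anergic (24) and not called (725) in 3 colours. Right, the distribution of the same fold change in percent of peaks for members and for all tested peaks, with the end bins pooling the tails; the members lie further to the left, with a median of -0.20.

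The largest anergic deficits were at Manba, which encodes the lysosomal enzyme beta-mannosidase. The intron member had 355, 383 and 499 in Treg, 46.4, 18.5 and 28.2 in anergic, 157, 189 and 212 in Teff, and 237 and 343 in naive libraries. Anergic libraries were far below all others, and the log2 fold change over Teff was -2.63 ± 0.27 (SE, limma adjusted p = 1.52e-07). The peak nearest B3galnt1, in an intron of Ppm1l, had -2.24 ± 0.43 (limma adjusted p = 0.000294), with the anergic libraries spread from 30.6 to 272 and all below the Teff libraries, at 363 to 523. The Ap1m1 member, in the same run as the Klf2 member 23.2 kb upstream, had -2.13 ± 0.31 (limma adjusted p = 1.44e-05).

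The Foxp1 promoter belonged to the same group. Its member in the 5′ UTR, 0.025 kb from an annotated start, had 462, 355 and 410 in Treg, 84.6, 60.1 and 43.7 in anergic, 226, 217 and 232 in Teff, and 489 and 362 in naive libraries. Anergic libraries were lowest, Teff libraries intermediate and tightly grouped, and no group overlapped except Treg with naive. The log2 fold change of anergic over Teff was -1.88 ± 0.22 (limma adjusted p = 7.22e-07). In all, 9 of the 19 Foxp1 members and 14 of the 24 Bach2 members fell in anergic relative to Teff cells by limma at the adjusted threshold of 0.05, and 0 rose, also at an unadjusted p under 0.05 and by edgeR and DESeq2. Over all tested peaks 16.8% were lower and 15.9% higher in anergic cells by the same limma calls.

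On the naive and quiescence list, which includes both genes, 30 of the 80 members were lower in anergic cells and 0 higher by the same limma calls, against 16.8% lower and 15.9% higher over all tested peaks. With edgeR 28 were lower and with DESeq2 31, and 0 were higher by either tool or at an unadjusted p under 0.05. Most of the 30 limma calls were the 14 Bach2 and 9 Foxp1 members counted above, so the count says little of the other genes. Of all 513 peaks of the list, 128 were lower and 77 higher. At the Klf2 member 23.2 kb upstream the log2 fold change was -1.22 ± 0.20 (limma adjusted p = 4.73e-05), and at the Sesn1 member -0.98 ± 0.19 (limma adjusted p = 0.000322). The Il2ra member had -1.34 ± 0.31 (limma adjusted p = 0.00151), while the printed members of Bach2 and Foxp1 had limma adjusted p = 0.342 and 0.592. The Lef1 member 131 kb upstream, singled out after its values were seen, averaged 119 in Treg, 20.2 in anergic, 47.3 in Teff and 94.9 in naive cells, with -1.18 (limma adjusted p = 0.00553).

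Some of the named calls were lost when 1 library was left out. Bcl2l11 had -1.32 ± 0.42 (limma adjusted p = 0.0174), and without anergic replicate 2, whose value of 4.74 was the lowest, -0.66 (limma adjusted p = 0.132). That call was also lost without Teff replicate 2 (limma adjusted p = 0.0836). At the Ifngr1 member the change was -1.30 ± 0.40 (limma adjusted p = 0.0159), and -0.68 (limma adjusted p = 0.111) without anergic replicate 1. The Ifngr1 call was lost without Teff replicate 2 as well (limma adjusted p = 0.0571). Smad7 at -0.97 ± 0.30 (limma adjusted p = 0.0158) lost its call without any of 4 libraries: anergic replicates 2 and 3 and Teff replicates 2 and 3. The Il4ra call of -0.50 ± 0.14 (limma adjusted p = 0.00822) was lost without anergic replicate 3 (limma adjusted p = 0.0614). In a fit of the anergic and Teff libraries alone, Bcl2l11 lost its call (limma adjusted p = 0.109). So did Ifngr1 (limma adjusted p = 0.0545), Smad7 (limma adjusted p = 0.0537) and Xdh, described below (limma adjusted p = 0.0516).

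Members where anergic cells had more signal than Teff cells were fewer. Pgpep1l, which encodes a pyroglutamyl-peptidase-like protein, had a peak 0.42 kb from its start with 849, 941 and 950 in Treg, 540, 623 and 539 in anergic, 195, 226 and 252 in Teff, and 986 and 897 in naive libraries. The 3 levels did not overlap, and the log2 fold change of anergic over Teff was 1.34 ± 0.14 (limma adjusted p = 1.67e-07). The member nearest Platr4 rose by 1.15 ± 0.19 (limma adjusted p = 5.6e-05), and those of Xdh and Ctif by 1.02 and 0.87 (limma adjusted p = 0.0134 and 0.0029). The Xdh call was lost without anergic replicate 1 (0.79, limma adjusted p = 0.0782) or Teff replicate 2 (0.81, limma adjusted p = 0.0765), and the Ctif call when the shallowest library of each sorted group except naive was left out (a setting chosen after seeing the data; 0.58, limma adjusted p = 0.0614).

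Among the genes of inhibition, the Ctla4 member 26.0 kb upstream had 234, 266 and 227 in Treg, 126, 140 and 141 in anergic, 104, 76.0 and 80.0 in Teff, and 228 and 206 in naive libraries. The Ctla4 value in anergic cells was higher than in Teff cells by 0.65 ± 0.20 (limma adjusted p = 0.0145), a call that was lost without Teff replicate 2 (limma adjusted p = 0.0689). CTLA4 is the inhibitory receptor that Treg cells use against costimulation.

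Short motifs were searched in the central 300 bases of every peak on a chromosome, on both strands, as exact letters. AP-1 (TGANTCA) was found in 8.14% of members and 11.8% of all peaks, and RUNX (TGTGGTT) in 9.99% and 11.2%. NF-kB, by its decamer consensus, was in 0.977% and 2.24%, and ROR (TAGGTCA) in 1.52% and 2.32%. Each of these 4 was less frequent in members, and among distal peaks alone AP-1 stood at 9.08% of members and 15.3% of all. A match is a description of letters and not a bound site.

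The forkhead motif (TGTTTAC) was in 5.75% of members and 4.02% of all peaks, the E-box with a GG centre (CAGGTG) in 30.3% and 23.4%, the E-box with a GC centre (CAGCTG) in 21.1% and 18.1%, STAT (TTCNNNGAA) in 9.99% and 7.70%, and the AGATAA motif of the GATA factors in 13.4% and 10.8%. Shares were close for ETS (GGAAGT), at 27.6% and 27.5%, and for KLF (CCACNCCC), at 16.2% and 16.1%. TCF/LEF (CTTTGAT) stood at 6.08% and 5.06% and the motif of NFAT, spelled TTTTCCA, at 5.10% and 5.97%. T-box stood at 4.67% and 5.03%, IRF at 4.34% and 4.73%, and CTCF (by a short core) at 11.4% and 8.94%. For CTCF the ratio of the 2 shares turned below 1 at a gap of 0.8 (0.884) or 1 (0.662), and for GATA it was 0.993 among distal peaks. Members held fewer promoters than all peaks, so part of these differences may go with position. Among distal peaks alone TCF/LEF stood at 6.59% and 6.54%, forkhead at 6.09% and 4.90%, and the E-box with a GC centre at 20.6% and 19.0%. The E-box with a GG centre stood there at 30.3% and 24.7%, and STAT at 10.7% and 8.82%. The base composition of the windows was near that of all peaks, with a median GC content of 50.3% in members and 52.0% in all, and 49.8% and 49.3% among distal peaks.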

How the data were processed

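Chromatin accessibility was measured by ATAC-seq in 11 libraries of sorted mouse CD4 T cells. Trimmomatic 0.38.1 for trimming, Bowtie2 2.3.3.1 for alignment to mm10 and SAMtools 1.13 for sorting were used, per the design text of the series. Genrich 0.5 called peaks per sample, with PCR duplicates removed and ends adjusted for the transposase, and DiffBind 2.10.0 gave 38509 consensus peaks, per the same text. The scaling method is not given in the sources used here.

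The authors deposited 1 signal value per peak and library. Dividing each column of deposited signal by its smallest value gave whole numbers within 0.01 for 100.0% of values, so the signal was read as reads times a library factor. The log2(value + 1) of the deposited signal was fitted by limma-trend (limma 3.58.1, R 4.3.3) over the 11 libraries jointly, with the sorted group as sole factor. Low peaks were dropped with filterByExpr of edgeR 4.0.16 on recovered reads (16 peaks). Adjusted p-values are Benjamini-Hochberg over 38493 peaks, threshold 0.05. Whether replicates came from different animals is not in the labels, and the p-values therefore reflect variation among these libraries, which may be technical. edgeR and DESeq2 1.42.0 on recovered reads were alternatives. limma was also run on simulated reads with far fewer changed peaks than were called in the data, so that run does not check the calls given here.

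Starts count from 0 in the file and were raised by 1. Each peak went to the gene with the nearest RefSeq start site (GRCm38, 45756 transcripts), measured from its centre, which does not make that gene its target. The 68 peaks on unplaced contigs have no gene. Sequences were read from the RefSeq genome of the same build. Gene names followed a written rule: the 12 largest gaps with 1 peak per gene among peaks with a mean log2 of 6 or more, the largest gaps at up to 3 genes of each of 16 lists, the best member at the 6 genes with most members, and the 4 members with the largest called change in each direction between anergic and Teff. The members, lists and motifs were chosen with earlier results of these data known. The exact binomial interval covers counting error only.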

Additional observations from a re-analysis of the deposited data

How the results depend on the processing

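The number of members was 1063 at a gap of 0.5, 645 at 0.8 and 439 at a gap of 1 with the margin between Treg and naive set to the same value, of which 337 were shared with the 921. It was 825 with a pseudocount of 10, 1126 on equal total reads, 916 after quantile normalization, 1049 after TMM and 718 with a floor on mean signal, and 862 to 998 when each library was left out in turn. Without the shallowest Treg, anergic and Teff libraries, chosen after seeing the data, it was 1016.

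The promoter share was 9.34% at a gap of 1, and with promoters drawn within 500 or 2500 bases it was 8.36% and 19.3%, against 28.4% and 40.8% of all peaks. Leaving out each library gave 11.4% to 13.6%.

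Motif ratios (share in members over share in all peaks) that moved beyond counting error were STAT, at 1.61 and 1.72 for gaps of 0.8 and 1, E-box with a GG centre at 1.48 and NF-kB at 0.102 for a gap of 1, and, among distal peaks, RUNX at 0.716 and GATA at 0.993. CTCF was 0.884 and 0.662 for gaps of 0.8 and 1, 1.03 among distal peaks, 1.53 without the 3 shallow libraries and 1.01 to 1.44 with each library left out, so its direction against all peaks depends on the threshold. The cause was not tested.

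For anergic against Teff, members lower and higher numbered 160 and 24 by edgeR, 176 and 25 by DESeq2, and 114 and 15 from those libraries alone. Leaving out each library gave 111 to 219 lower and 16 to 32 higher. The share of all peaks called is given only for the main fit. A change in these counts between fits is therefore not read as a result about the members. Of 19 named calls, 10 kept their side of the threshold in every alternative run and 9 lost it at least once, in 43 of 380 values, with no reversal. Same-numbered anergic and Teff replicates had correlations of -0.11 to 0.15 between their deviations, so the numbers were not taken to pair samples; with the replicate block 177 members were lower and 29 higher. Depth limits members with few reads: 42 had under 10 reads in some library.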

Other observations

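The Gimap genes, which encode GTPases of lymphocyte survival, were singled out after their values were seen. A run of 4 members over chr6:48702293-48728818 lay near Gimap6 and Gimap7, and 3 of them were lower in anergic than in Teff cells by limma at the adjusted threshold of 0.05, a call that 16.8% of all tested peaks had. As the run was picked for its values, the count supports nothing. The member nearest Gimap7 averaged 3510 in Treg, 1579 in anergic, 2171 in Teff and 3760 in naive cells. Its log2 fold change of anergic over Teff was -0.47 (limma adjusted p = 0.0082). The Gimap6 member in a coding exon, 5.80 kb from the start, averaged 152 in Treg, 44.0 in anergic, 86.5 in Teff and 151 in naive cells, with -0.89 (limma adjusted p = 0.0205).

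The mirror pattern, in which anergic and Teff cells each exceeded both Treg and naive cells by 0.6 or more and stayed within 0.6 of each other, was met by 574 peaks, against 921 members.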
